A study of Mus musculus with 12 samples.

Results

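The genes described here are 10 genes of ribosomal RNA (rRNA) modification, chosen by name: Mettl5, its protein partner Trmt112, and Zcchc4, Dimt1, Emg1, Bud23, Nop2, Nsun5, Fbl and Nat10. They are 10 of the 55487 genes in the file of input counts, and 9 of them are among the 10607 genes with normalized values. Trmt112 has input values only. The normalized table lists genes with at least 1 read in each of its 12 columns. Trmt112 encodes an adaptor with no catalytic activity of its own, and Fbl encodes an enzyme that methylates ribose and not a base, so the set is wider than the base-modifying enzymes alone.

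Liver was taken from 3 mice that were wild type (WT) and 3 in which Mettl5 was knocked out (KO), in 3 litters that each gave 1 mouse of either genotype, numbered here by litter. In the KO, a floxed exon 2 of Mettl5 was deleted in the whole body with a CMV-Cre transgene. The stem cells behind the line were a hybrid of C57bl/6 and 129S6, and the mice were backcrossed to B6. Neither sex nor age entered any comparison. All lysates contained cycloheximide, which holds ribosomes on mRNA. From each liver an input library was made, RNA-seq of the lysate that stands for transcript levels, and an RPF library, made from ribosome-protected fragments, the footprints of mRNA that nuclease leaves under a ribosome. Translation efficiency (TE) is RPF relative to input. In such whole-liver samples, fewer cells of a type and less RNA per cell cannot be told apart.

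Mature rRNA carries modified bases and riboses at fixed positions, many of them near the decoding and peptide transfer centres. Most ribose methylations and pseudouridines are placed by snoRNPs, in which a guide RNA pairs with the site and Fbl, or the pseudouridine synthase Dkc1, modifies it. A smaller group of stand-alone enzymes places base modifications one site at a time. On 18S rRNA of the small subunit, METTL5 makes an N6-methyladenosine (m6A), BUD23 an N7-methylguanosine, DIMT1 a pair of dimethylated adenosines, EMG1 methylates a pseudouridine and NAT10 acetylates cytidines. On 28S rRNA of the large subunit, ZCCHC4 makes an m6A, and NOP2 and NSUN5 make 5-methylcytidines. TRMT112 binds and stabilizes METTL5 and BUD23, so these 2 enzymes share a partner. DIMT1, EMG1, NOP2, BUD23 and NAT10 are also known as factors of ribosome assembly.

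A pair of sequences frame the experiment. The first is the part of Mettl5 that the knockout removes, exon 2, in mm10 at chr2:69881297-69881411 on the minus strand. The second is the site in 18S rRNA that METTL5 methylates, in mm10 at chr17:39848151-39848177 on the plus strand, in which capitals mark the TAACA motif that holds the methylated adenosine.
Mettl5 exon 2: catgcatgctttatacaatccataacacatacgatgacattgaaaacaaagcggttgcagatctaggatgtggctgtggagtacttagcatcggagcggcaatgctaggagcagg
18S rRNA site: agtaaaagtcgTAACAaggtttccgta
Exon 2 is coding throughout. Its 115 bases are 18.3% of the 627 coding bases and leave a remainder of 1 when divided by 3. With exon 1 joined to exon 3 the reading frame meets a stop after 43 codons, against 208 codons in the full sequence. Exons 3 to 7 hold 64.3% of the coding bases, so reads of a transcript without exon 2 still count towards Mettl5. The TAACA motif, searched on the RNA strand, occurs 3 times in the 1849 bases of the annotated 18S gene, and the one shown is the last of them.

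Input libraries held 8326325 to 11825643 counted reads, of which 45.8% to 63.8% were 18S rRNA. The 45.8% was in KO mouse 1, and the other input libraries had 59.1% to 63.8%. Outside 18S rRNA, mitochondrial rRNA and the gene Lars2, KO mouse 1 had 4745069 counts, against 2077408 to 2663087 in the others. The reads that fell in the 10 genes numbered 212 to 610 per input library and 578 to 1111 per RPF library, the latter over the 9 genes of the table, so every value below rests on few reads. In the input, given as CPM (library-size scaled counts), 7 hepatocyte markers summed to 21171 to 28205 in WT livers and 22491 to 23932 in KO livers, and 4 Kupffer cell markers summed to 60.3 to 94.4 and 55.0 to 79.8. The 4 endothelial markers summed to 67.7 to 74.3 in WT and 66.5 to 78.1 in KO, the 4 stellate cell markers to 15.8 to 22.1 and 19.5 to 25.2, the 4 cholangiocyte markers to 1.76 to 3.44 and 2.51 to 3.37, and the 5 blood markers to 10.7 to 15.8 and 10.2 to 16.8. The ranges of the genotypes overlapped for all 6 lists.

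In mm10, Mettl5 lies at chr2:69871198-69885615 and Nat10 at chr2:103721256-103761270, both on the minus strand. Zcchc4 lies at chr5:52775409-52824665 and Nsun5 at chr5:135369953-135376805 on the plus strand, and Bud23 at chr5:135052957-135064959 on the minus strand, 3 genes of the set on 1 chromosome. Emg1, at chr6:124704085-124712178 on the minus strand, and Nop2, at chr6:125131909-125144753 on the plus strand, share another. Fbl lies at chr7:28169710-28179269, Dimt1 at chr13:106947127-106960224 and Trmt112 at chr19:6909698-6911049, all on the plus strand. Coding sequences ran from 375 bases in Trmt112 to 3072 in Nat10.

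Coding GC content ran from 38.9% in Mettl5 to 58.9% in Nsun5. Only uniquely placed reads were kept, and 3 of the 10 coding sequences have a near copy elsewhere in mm10. Trmt112 has a copy of 100% identity over its 375 coding bases on chromosome 4 and one of 98.9% on chromosome 5. Dimt1 has a copy of 98.8% over 939 bases on chromosome 4. Fbl has one of 96.8% over 981 bases on chromosome 17 and one of 91.0% over 899 bases on chromosome 13. Values of these 3 genes are therefore uncertain. The other 7 coding sequences had no further match of at least 90% identity over 60 bases. Mettl5 overlaps Ssb, which encodes the La protein, on the opposite strand by 169 exonic bases, 86 of them coding in Mettl5. On its own strand, 50 coding bases of Mettl5 lie in exons of the gene Gm13625. Whether these bases also code in Ssb or Gm13625 was not determined. The other overlaps lie outside the coding sequences of the 10 genes.

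Transcript abundance was asked first. Mettl5 differed most among the 10 genes, and none of them passed the test. Mettl5 had 21, 18 and 12 counts in WT mice 1, 2 and 3 and 13, 7 and 5 in KO mice, from larger KO libraries. Scaled to library size this was 2.89, 2.11 and 1.18 CPM in WT and 0.667, 0.704 and 0.602 in KO. Every KO liver was below every WT liver, and the KO mean was 31.9% of the WT mean. The log2 change was −1.59 ± 0.46 (SE), with a 95% interval of −2.57 to −0.61 (edgeR quasi-likelihood, adjusted p = 0.999).

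Trmt112 had 27, 16 and 35 counts in WT and 49, 15 and 10 in KO, which is 3.71, 1.88 and 3.45 CPM against 2.51, 1.51 and 1.20. KO was lower than WT in each of the 3 litters, although the groups overlapped. The log2 change was −0.71 ± 0.36 (adjusted p = 0.999 in edgeR), with a 95% interval of −1.47 to 0.057. Its near copies apply to this value.

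Nat10 was the only other gene of the 10 without overlap in input, at 3.44, 4.69 and 4.83 CPM in WT and 5.18, 5.54 and 6.38 in KO. Its log2 change of 0.38 ± 0.23 had an adjusted p of 0.999 in edgeR. Non-overlap of this kind, in either direction, was found for 8.56% of the 10057 genes tested. Emg1, Bud23 and Nop2 were also higher in KO in 3 of 3 litters, with log2 changes of 0.37 ± 0.21, 0.21 ± 0.31 and 0.21 ± 0.25. The share of all genes with the same direction in every litter was not computed, here or in RPF and TE. Nsun5 and Fbl had 0.12 ± 0.40 and 0.054 ± 0.32. Zcchc4, with 3 to 7 WT counts and 2 to 26 KO counts, and Dimt1, with 1 to 7 and 1 to 8, were too low for the filter on low counts. Tested without it they had log2 changes of 0.60 ± 0.62 and −0.052 ± 0.83.

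Thus 8 of the 10 genes were tested in input and 0 were called at an adjusted p under 0.05, against a background of 0.0% (0 of 10057 genes). At an unadjusted p under 0.05 the edgeR fit had 348 genes (3.46%), 1 of them Mettl5, and DESeq2 called 1 gene at the adjusted threshold, none of the 10. The median log2 change was 0.16 over the 8 genes, Mettl5 included, and −0.00037 over all genes tested.

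**Figure D1:**
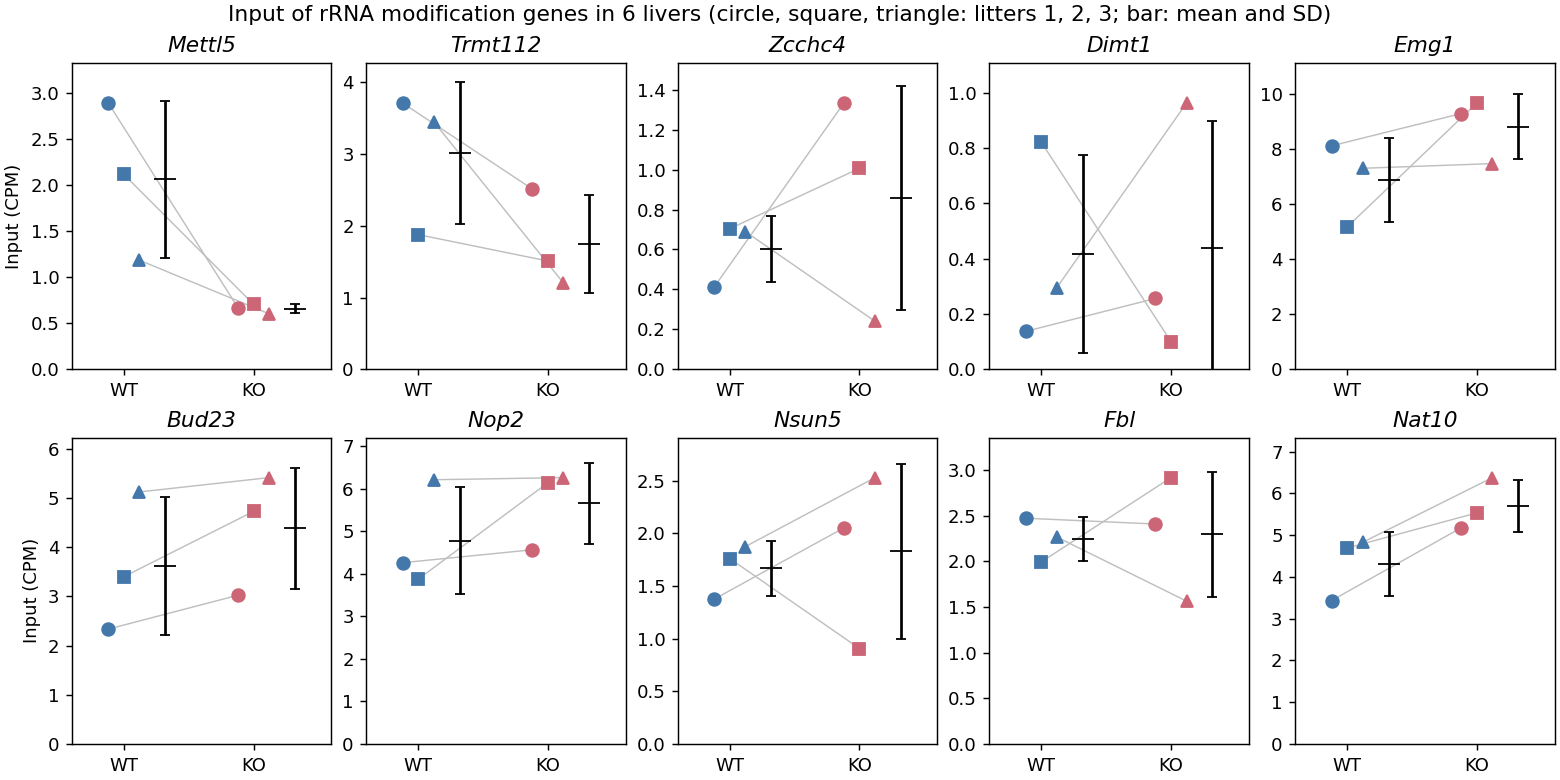
Input of the 10 genes, in CPM, in each liver. Circles, squares and triangles are the mice of litters 1, 2 and 3, grey lines join littermates, and the black bars are the mean and SD of 3 mice. KO mice lay below all WT mice in Mettl5 and above them in Nat10, and the genotypes overlapped in the other 8 panels.

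Footprints were compared next, as normalized reads on the deposited scale. Mettl5 fell, and no other gene of the 10 passed the test. Mettl5 had 58.4, 47.8 and 53.1 normalized RPF reads in WT and 8.34, 5.53 and 9.56 in KO. These come from 67, 56 and 103 reads in WT and 12, 9 and 10 in KO. All 3 KO livers were far below all 3 WT livers, and within litters 1, 2 and 3 the KO level was 0.143, 0.116 and 0.180 of the WT level. The log2 change was −2.64 ± 0.36 (95% interval −3.39 to −1.89, adjusted p = 0.0050, limma on log2 of the value plus 1). Without KO mouse 2 the change was −2.44 and the adjusted p was 0.052. Ssb, on the other strand, had a log2 RPF change of −0.17 ± 0.17 (adjusted p = 0.71, limma), and whether its footprints add to those of Mettl5 was not tested.

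The 5-methylcytidine writer Nop2 had the largest positive RPF difference of the 6 genes tested. It had 119, 147 and 171 normalized RPF reads in WT and 142, 234 and 270 in KO. KO was higher in 3 of 3 litters, with ratios of 1.19, 1.59 and 1.58, while KO mouse 1 lay within the WT range. The log2 change of 0.53 ± 0.24 had a 95% interval of 0.021 to 1.03 and an adjusted p of 0.36 in limma. With litter as a block the adjusted p was 0.11.

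Of the other enzymes of 18S rRNA, Bud23 had 105, 119 and 120 normalized RPF reads in WT and 132, 114 and 124 in KO. All 6 livers thus lay between 105 and 132, and the log2 change was 0.10 ± 0.26. Emg1 had 105, 64.0 and 54.2 in WT and 85.5, 74.4 and 65.9 in KO, with the KO values inside the WT range and a log2 change of 0.065 ± 0.24. Nat10 had 94.97, 68.3 and 116 in WT and 85.5, 86.7 and 76.5 in KO, again inside the WT range, with a log2 change of −0.14 ± 0.22.

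The dimethylase Dimt1 stood near the floor of the assay. It had 6.10, 5.12 and 7.74 normalized RPF reads in WT and 2.78, 3.69 and 2.87 in KO, from 7, 6 and 15 reads and 4, 6 and 3 reads. The normalized values of the genotypes did not overlap, as for 19.8% of the 8994 genes tested in RPF. Its mean was under the filter of 10, and without the filter its log2 change was −0.82 ± 0.61 (adjusted p = 0.62, limma). What size of difference the test could detect with so few reads was not determined. The near copy of Dimt1 applies to these values.

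Of the enzymes of 28S rRNA, Nsun5 had 35.7, 17.9 and 40.2 normalized RPF reads in WT and 29.9, 32.6 and 40.1 in KO, which overlapped, with a log2 change of 0.19 ± 0.36. Zcchc4, the other rRNA m6A methyltransferase, had 9.58, 11.9 and 7.22 in WT and 13.9, 6.76 and 13.4 in KO. It was higher in KO in 2 of 3 litters, and without the filter its log2 change was 0.19 ± 0.50. The snoRNP ribose methylase Fbl had 4.36, 11.9 and 3.61 in WT and 5.56, 4.30 and 3.82 in KO, with WT mouse 2 above the rest. Without the filter its log2 change was −0.31 ± 0.42.

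In all, 6 of the 10 genes were tested in RPF and 1 was called, Mettl5. Mettl5 is the gene disrupted in the KO, so its call is no result about the set. None of the other 5 genes was called, against a background of 0.489% (44 of 8994 genes). With litter as a block the background rose to 3.26% (293 genes), and Mettl5 was still the only one of the 6 called. The median log2 change was 0.084 over the 6 genes, Mettl5 included, and −0.033 over all genes tested. The 95% intervals of the 5 genes not called lay between −0.59 and 1.03 on the log2 scale.

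**Figure D2:**
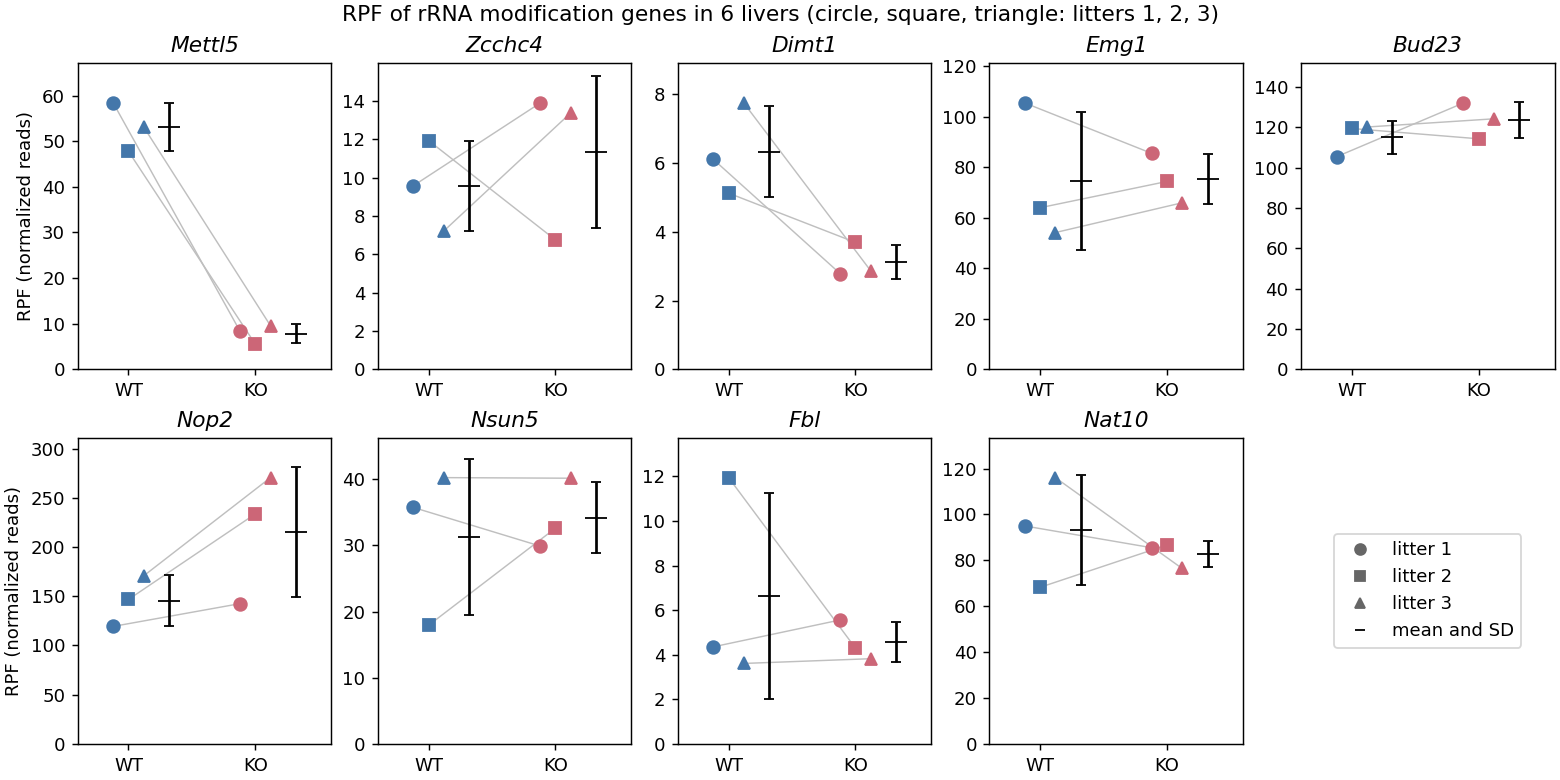
Normalized RPF reads of 9 genes in each liver. Circles, squares and triangles are litters 1, 2 and 3, grey lines join littermates, and the black bars are the mean and SD of 3 mice. Mettl5 dropped from 47.8 to 58.4 in WT to 5.53 to 9.56 in KO, Dimt1 did not overlap at 2.78 to 7.74 reads, and the genotypes overlapped in the other 7 panels.

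TE asked whether footprints changed beyond the transcript. For Mettl5, log2 TE was 0.59, 0.74 and 1.69 in WT mice 1 to 3 and −0.032, −0.66 and 0.23 in KO mice. All KO values were below all WT values. Groups without overlap, in either direction, made up 13.4% of the 8994 genes tested in TE. The difference was −1.16 ± 0.51 (95% interval −2.22 to −0.10, adjusted p = 0.998 in limma).

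Among the 6 genes that passed the filter, Nat10 had the next largest TE difference in size, −0.51 ± 0.31 (adjusted p = 0.998, limma), with log2 TE of 1.03, 0.12 and 0.84 in WT and 0.36, 0.24 and −0.15 in KO, which overlapped. Nop2 had log2 TE of 1.06, 1.49 and 1.04 in WT and 1.27, 1.52 and 1.69 in KO, higher in KO in 3 of 3 litters, with a difference of 0.30 ± 0.34. Emg1, Bud23 and Nsun5 had differences of −0.28 ± 0.33, −0.18 ± 0.36 and 0.19 ± 0.51. Without the filter, Zcchc4, Dimt1 and Fbl had −0.032 ± 0.71, −0.73 ± 0.87 and −0.28 ± 0.59. The test called 0 of the 6 genes in TE, against a background of 0.0% (0 of 8994 genes). In limma 423 genes (4.7%) had an unadjusted p under 0.05, among them Mettl5, and edgeR on the whole reads also called 0. The median was −0.23 over the 6 genes, Mettl5 included, and −0.011 over all genes tested.

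**Figure D3:**
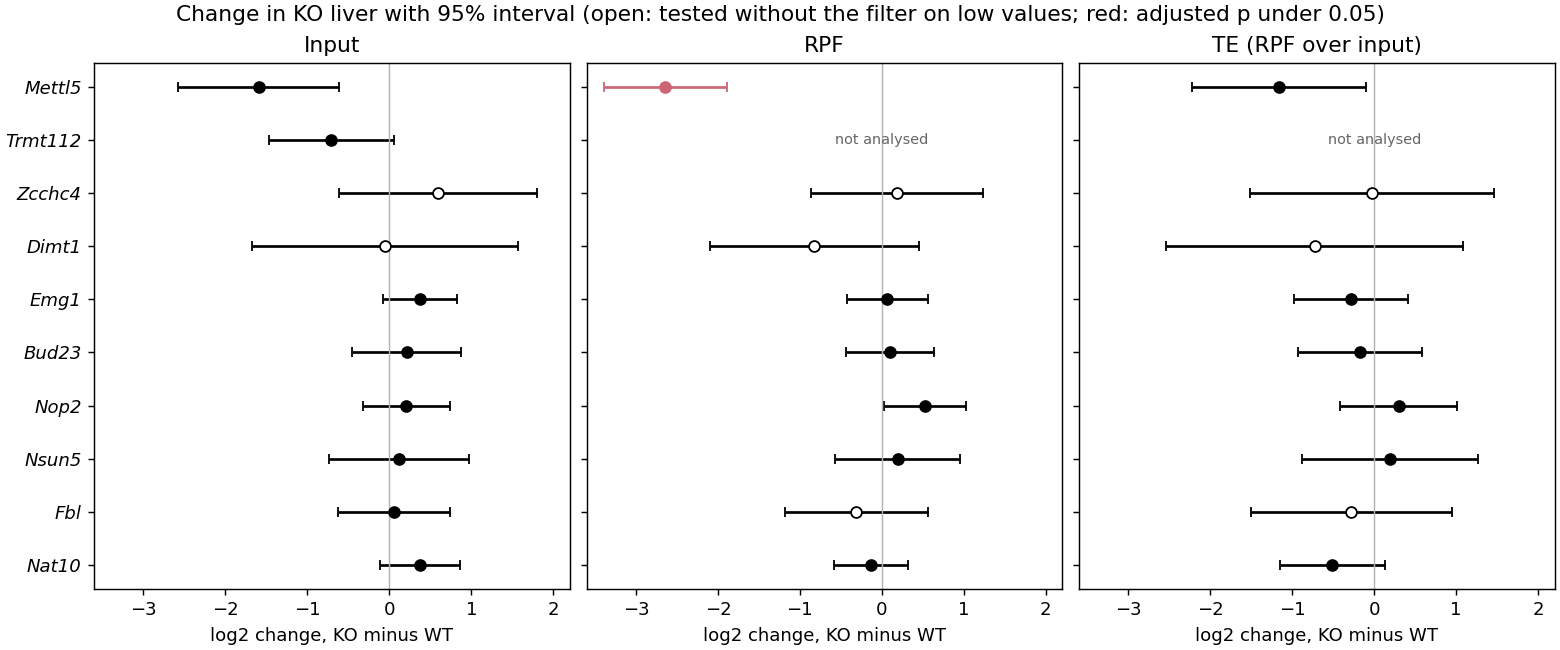
Log2 change in KO relative to WT for input (edgeR), RPF and TE (limma), with 95% intervals. Open points are genes tested without the filter on low values, and red marks an adjusted p under 0.05. The RPF change of Mettl5, −2.64, is the only red point, and the intervals of Dimt1 and Zcchc4 are the widest.

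Levels in WT liver ranged widely among the genes. Per length of the transcript chosen for each gene, Emg1 was the most abundant in input at 88.4 ± 19.6 normalized reads per kb (SD, n = 3), above the range of Trmt112, which was next at 42.0 ± 13.8. Bud23, Mettl5, Fbl and Nop2 followed at 31.8 ± 12.3, 28.4 ± 11.8, 25.0 ± 2.67 and 24.5 ± 6.37, and from Trmt112 to Nop2 the range of each gene overlapped that of the next. Nat10 at 14.8 ± 2.63 and Nsun5 at 9.92 ± 1.54 were each below the range of the gene before. Dimt1 and Zcchc4 were lowest at 2.72 ± 2.33 and 1.40 ± 0.38, with overlapping ranges. This order depends on the transcript: per exonic length of all isoforms, Trmt112 came first at 32.6 ± 10.7, Nop2 next at 23.0 ± 5.97 and then Emg1 at 19.7 ± 4.37, with overlapping ranges, while Dimt1 and Zcchc4 were again lowest. On the first scale, the median of the 10594 genes with a length was 21.7, and Zcchc4 and Dimt1 exceeded 2.53% and 7.27% of those genes. The near copies of Trmt112, Dimt1 and Fbl apply to their levels.

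Per length of coding sequence, Bud23 led in RPF at 136 ± 9.86 normalized reads per kb, followed by Emg1 at 102 ± 37.2 and Mettl5 at 84.7 ± 8.45, each overlapping the next. Nop2 at 61.1 ± 10.8 was below the range of Mettl5 and above that of Nat10, which had 30.3 ± 7.80. Nsun5 had 22.4 ± 8.46 and overlapped Nat10. Fbl, Dimt1 and Zcchc4 were lowest, at 6.77 ± 4.70, 6.73 ± 1.41 and 6.24 ± 1.54, and overlapped each other. The median gene had 38.5. Fbl thus exceeded 54.1% of genes in input and 14.2% in RPF. The near copies of Fbl and Dimt1 apply to these levels too.

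The ratio of these levels, length-corrected and set relative to the median gene, was called for 2 of the 6 genes that passed the filter, against a background of 57.2% (5140 of 8985 genes), so a call here is common. The median over the 6 genes was 0.16 on the log2 scale and over all genes 0 by construction. Bud23 was 2.15-fold above the median gene (log2 1.10 ± 0.26, adjusted p = 0.0011, limma). Emg1 was 1.83-fold below it (log2 −0.87 ± 0.24, adjusted p = 0.0039, limma). The call on Emg1 depends on which transcript stands for the gene: with the exonic length of all its isoforms, 4632 bases in place of 1034, its value was 0.68 with an adjusted p of 0.017, above the median gene. It also had −0.62 with an adjusted p of 0.084 without WT mouse 3.

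Mettl5, Nop2, Nsun5 and Nat10 had log2 values of 0.59 ± 0.36, 0.27 ± 0.24, 0.045 ± 0.36 and −0.045 ± 0.22 and were not called. With the exonic length of all isoforms, Mettl5 had 1.31 and an adjusted p of 0.0037 (limma). Without the filter, where 53.9% of 10594 genes were called, Fbl was 7.28-fold below the median gene (log2 −2.86 ± 0.42, adjusted p = 7.4e-06, limma). It was still below it, at −1.65 (adjusted p = 0.0021), with the length of all isoforms. Fbl had 17 to 23 input counts and 5 to 14 RPF reads in WT. The part of its near copies in this ratio was not tested. Zcchc4 had 1.16 ± 0.50 (adjusted p = 0.058). It passed with the length of all isoforms, at 1.49 (adjusted p = 0.016), and when KO mouse 3 was left out of the fit (adjusted p = 0.026). Dimt1 had 0.54 ± 0.61 (adjusted p = 0.48).

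**Figure D4:**
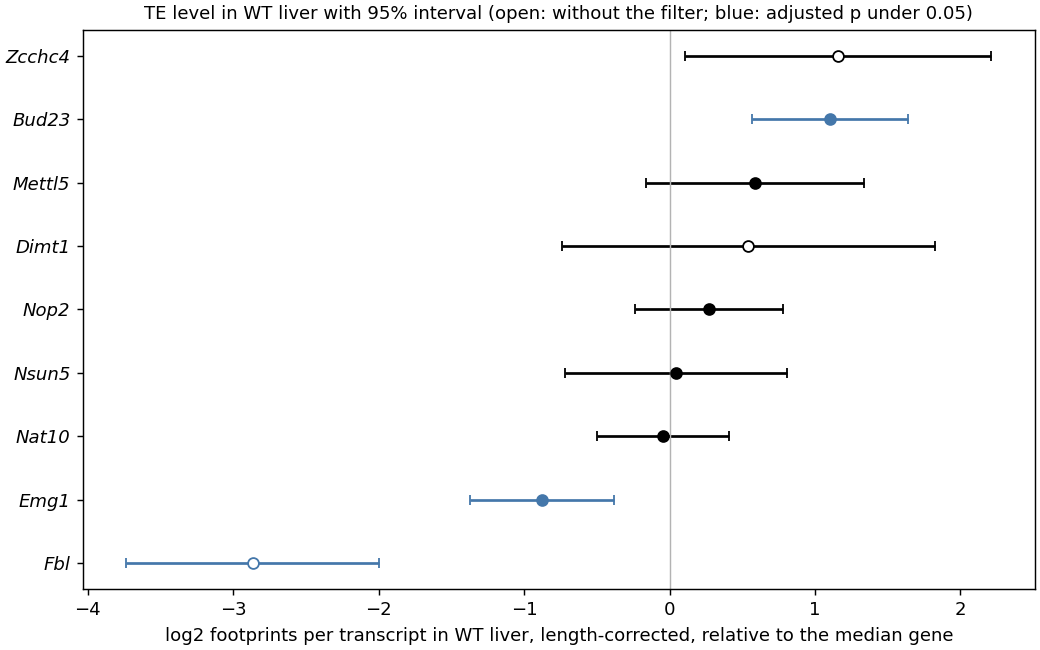
Footprints per transcript in WT liver, corrected for coding and transcript length and set relative to the median gene (log2 scale), with 95% intervals. Open points are genes tested without the filter, and blue marks an adjusted p under 0.05. Fbl at −2.86 and Emg1 at −0.87 lay below 0 and Bud23 at 1.10 above it, and Emg1 moved to 0.68 with the length of all isoforms.

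The wider machinery of rRNA modification was described by 5 lists with 33 genes in all: the box C/D snoRNP and its assembly factors (9 genes), the H/ACA snoRNP and its assembly factors (6), other enzymes and adaptors of cytosolic rRNA modification (4), enzymes and factors for mitochondrial rRNA (9), and other methyltransferase partners of TRMT112 (5). In input, RPF and TE, 29, 28 and 28 of them were tested and 0 passed in either direction in each, by edgeR in input and by limma in RPF and TE. The median log2 changes were 0.13, −0.17 and −0.25, against −0.00037, −0.033 and −0.011 over all genes tested. Of the 28 list genes tested in RPF, 7 had positive differences. The 6 mitochondrial genes tested in RPF all had negative differences, with a median of −0.27, and 0 of the 6 passed. The share of all genes with a negative or a positive difference was not computed. In input, 4 of the 7 mitochondrial genes tested were higher in KO. Other partners of TRMT112 had a median RPF change of −0.20 over 4 genes.

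The list genes with the smallest p-values, none of which passed, were these. In input they were the box C/D core protein Nop58, at −0.52 ± 0.23, and the H/ACA protein Nop10, at −0.43 ± 0.24. In RPF they were Ruvbl2, an ATPase that helps assemble snoRNPs, at 0.59 ± 0.26, with 33.6 ± 3.80 normalized reads in WT and 51.2 ± 7.57 in KO (SD, n = 3), and Ftsj3, a ribose methylase of ribosome precursors, at −0.27 ± 0.17. In TE they were Tsr3, an enzyme that completes a hypermodified base of 18S rRNA, at 0.81 ± 0.34, and Rpusd4, a mitochondrial pseudouridine synthase, at −1.56 ± 0.71. Their adjusted p-values were 0.999 in input in edgeR, 0.34 and 0.50 in RPF and 0.998 in TE in limma.

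In WT liver, 10 of the 28 list genes were called above the median gene in footprints per transcript and 3 below it, beside 29.1% and 28.1% of all genes. Their median was 0.49 on the log2 scale. Nop10, which has a very short coding sequence, was highest at 3.52 ± 0.19, and the other 9 above the median gene were N6amt1 (1.87 ± 0.62), Mterf4 (1.57 ± 0.44), Shq1 (1.57 ± 0.32), Trmt11 (1.42 ± 0.32), Nufip1 (1.35 ± 0.35), Nsun4 (1.26 ± 0.20), Znhit3 (1.01 ± 0.34), Nop58 (0.64 ± 0.21) and Thumpd1 (0.60 ± 0.22). The 3 below it were Alkbh8 (−1.17 ± 0.27), Tsr3 (−0.79 ± 0.24) and Pih1d1 (−0.52 ± 0.18). Adjusted p-values in limma ran from 3.0e-11 for Nop10 to 0.024 for Thumpd1. Of the partners of TRMT112 in the lists, N6amt1, a protein methyltransferase, and Trmt11, a tRNA methyltransferase, were thus above the median gene. Alkbh8, a tRNA wobble-base enzyme, was below it.

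The RPF profile of Mettl5 over the 6 livers was compared with that of the 8993 other genes tested, by Pearson's r of log2(value + 1). The 5 most alike were Rpf1 (0.993), Mup14 (0.993), Hsp90b1 (0.989), Magt1 (0.987) and Prkag1 (0.984), and 208 genes were above 0.9. The 6 points share the 2 genotypes, so a gene that is lower in KO has a high r, and Rpf1, Mup14, Hsp90b1, Magt1 and Prkag1 had log2 RPF changes of −0.51, −1.53, −0.36, −0.69 and −0.46. Of these, Mup14 and Magt1 passed the test, both with an adjusted p of 0.012 in limma. Among the rRNA enzymes that passed the filter, Nat10 had an r of 0.29, Emg1 −0.076, Nsun5 −0.18, Bud23 −0.47 and Nop2 −0.65. None of these followed Mettl5 closely. Zcchc4, Dimt1 and Fbl were under the filter and were not compared with Mettl5.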

How the data were processed

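Input and RPF libraries of 6 livers were used, in 4 groups of 3 taken from the sample labels. The deposited input counts are reads that the authors aligned to mm10 with STAR 2.7.3a and counted over exons by strand with featureCounts (1.6.0 in the processing notes, 2.0.3 in the file header), keeping uniquely mapped reads. RPF reads of 25 to 34 nt were mapped by the authors with RiboToolkit. The region they counted and the use of strand there are not given in the sources used here. The signal in the deposited TE table is reads divided by 1 factor per library, with no length term, and 100% of values were whole multiples of 1 read (within 0.01). The authors' fold changes and p-values in that table were not used. The number of per-sample columns that match no sample was 0.

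Input was tested with edgeR 4.0.16 (TMM, filterByExpr, quasi-likelihood, R 4.3.3). RPF, TE and the TE level in WT were tested with limma 3.58.1 (trend, robust) on log2(value + 1) in 1 model of 4 group means. Genes entered it with an average normalized value of 10 or more both in input and in RPF. The design had assumed normalized values, so edgeR on the recovered reads was run beside it. Fold changes on this scale understate those of low genes. Tests were two-sided, with Benjamini-Hochberg adjustment over all genes tested. They measure the spread between mice, but the limma model counts the input and RPF libraries of a liver as independent. With mouse as a block in limma, 0 of 8994 genes were called in TE and 774 had an unadjusted p under 0.05. Mettl5 then had a TE change of −1.16 with an adjusted p of 0.54 (limma). Genes without a filtered value are given from the unfiltered fit. For the TE level, RPF was divided by the coding length and input by the length of the transcript with that coding sequence (GENCODE vM21). Near copies were sought with blastn 2.17.0. CPM was computed from the deposited counts on TMM library sizes. Sequences are from GRCm38.

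The 10 genes and the other lists were chosen with earlier results of these data known. Named are all 10 genes, Ssb, list genes with an adjusted p under 0.05 or among the 2 smallest p-values of a comparison, and the 5 genes most like Mettl5 in RPF. Litters pair the mice, per the labels; deviations of littermates correlated by 0.082, 0.127 and 0.100 in input and 0.242, 0.144 and 0.195 in RPF. In simulated data, 4-fold changes of 200 genes were recovered for 96% in input (10057 genes run), 98% in RPF (8994) and 86.5% in TE (8994), and 2-fold changes for 44.5%, 48.5% and 5.5%. The simulation gave all genes of an assay the same dispersion and drew the changed genes from all genes run. It therefore does not give the recovery for the 10 genes at their low counts.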

Additional observations from a re-analysis of the deposited data

How the results depend on the processing

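Across all alternatives, 0 of the 10 genes were called in input or TE. In RPF the count of 1 (Mettl5) became 0 with a mean of at least 50, under which Mettl5 is not tested, and ranged from 0 to 1 when each mouse was left out, with 0 without KO mouse 2. The count of 2 for the TE level in WT became 4 with no length term and ranged from 1 to 2 when each mouse was left out. Litter as a replicate block changed no call on the 10 genes: the RPF change of Mettl5 stayed at −2.64 (adjusted p = 0.00043, limma), and the counts stayed at 0 in input, 1 in RPF, 0 in TE and 2 for the TE level. Over all genes, RPF calls were 44 in the reported fit, 293 with the block, 85 with the block and the coding GC trend removed, 10 with that trend removed alone, 20 with edgeR on whole reads, 23 with RPF columns alone, and 0 to 228 when each mouse was left out (0 without KO mouse 2, 228 without KO mouse 1). Input calls were 0 as reported, 30 with no filter, 1 with DESeq2, 2 with the block and 0 to 21 with each mouse left out (21 without KO mouse 2).

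Directions that turned belonged to differences not called in the reported fits, except the TE level of Emg1. With the coding GC trend removed, with and without the block, the RPF change of Bud23 was −0.054. With edgeR on whole reads, the TE change of Nsun5 was −0.00074. For the TE level in WT, the exonic length of all isoforms (chosen after the data were seen) gave 0.68 for Emg1, −0.24 for Nop2 and 0.24 for Nat10, and Nat10 had 0.024 with no filter (also chosen then) and 0.58 with no length term. When each mouse was left out, input changes ran from −0.0083 to 0.56 for Bud23, −0.11 to 0.42 for Nsun5 and −0.12 to 0.23 for Fbl. RPF changes ran from −0.13 to 0.34 for Emg1, −0.16 to 0.41 for Nsun5, −0.34 to 0.039 for Nat10 and −0.59 to 0.15 for Fbl. TE changes ran from −0.48 to 0.036 for Bud23, −0.20 to 0.45 for Nsun5, −0.82 to 0.51 for Zcchc4, −1.41 to 0.020 for Dimt1 and −0.57 to 0.26 for Fbl. The TE change of Zcchc4 was 0.21 and 0.51 when KO mouse 1 or 2 was left out, and 0.20 and 0.0077 when WT mouse 1 or 2 was. TE levels ran from −0.20 to 0.44 for Nsun5 and −0.22 to 0.24 for Nat10. Zcchc4, Dimt1 and the RPF and TE values of Fbl come from fits without the filter, and their alternatives were chosen after the data were seen. The causes were not tested, apart from the length terms, which act by construction. Depth limits all of this: the 10 genes had 212 to 610 reads per input library.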
